A study of Mus musculus with 12 samples.

Results

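The enzymes that build triglycerides from glycerol 3-phosphate and those that break them down again were followed by RNA-seq in C2C12 cells, a line of mouse myoblasts. They are 10 of the 46983 genes in the expression table, taken by symbol through their Ensembl identifiers. *Gpam*, *Agpat2*, *Lpin1*, *Dgat1* and *Dgat2* act in synthesis, *Gpd1* and *Pck1* in the supply of glycerol 3-phosphate, and *Pnpla2*, *Lipe* and *Mgll* in lipolysis. Of the 10 genes, 9 reached the lower limit of expression set for testing, and *Pck1* did not.

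RNA was sequenced in 4 groups of 3 libraries, 12 in all. WT_0d and WT_5d were wild type cells, titled after the PiggyBac vector PB-IP, before differentiation and after 5 days of it. PPARγ/+_0d and PPARγ/+_5d were cells in which the coding sequence of PPARγ had been put into the same vector and brought in with a transposase, followed by selection with puromycin, taken on the same days. The series text calls the PPARγ cells inducible and the controls uninduced, whereas the methods describe stable transfectants and no inducer. The methods name positive clones as the aim of selection, but neither source says whether the PPARγ/+ cells were a pool or 1 clone. No further line of either kind is labelled, so the overexpression and any other difference between the lines cannot be told apart. Replicate libraries of a group were called biological in the study, but no source used here says whether they came from separate cultures, so the p-values measure the spread between these libraries. Expression was given as FPKM, the fragments on a gene per kilobase of its exons, scaled to the mapped fragments of the library. From 10836870 to 15133548 fragments per library could be recovered from the FPKM, on genes whose annotated length gave whole numbers of fragments.

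Triglyceride is made by adding a fatty acid to glycerol 3-phosphate (*Gpam*), adding another to give phosphatidic acid (*Agpat2*), removing the phosphate to give diacylglycerol (*Lpin1*) and adding the last fatty acid (*Dgat1*, *Dgat2*). *Gpd1* makes glycerol 3-phosphate from an intermediate of glycolysis, and *Pck1*, the cytosolic phosphoenolpyruvate carboxykinase, feeds the same pool from pyruvate. In lipolysis the fatty acids are released in turn by adipose triglyceride lipase (*Pnpla2*), hormone-sensitive lipase (*Lipe*) and monoacylglycerol lipase (*Mgll*). PPARγ is the nuclear receptor that directs adipocyte differentiation, and many enzymes of lipid storage and release are known as its targets in adipocytes. Muscle fibers hold small lipid droplets and carry the same lipases at a lower level than fat.

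The overexpression label was checked on *Pparg*. Its FPKM was 7.56, 5.10 and 6.92 in WT_0d, 3.12, 3.53 and 4.59 in WT_5d, 44.4, 27.98 and 46.4 in PPARγ/+_0d and 40.1, 44.1 and 92.7 in PPARγ/+_5d. All PPARγ/+ libraries lay above all WT libraries, and PPARγ/+_5d replicate 3 was the highest. Reads of the introduced coding sequence and of the endogenous gene cannot be told apart in these values.

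The cell type was checked by lists of marker genes. All 8 myotube markers were detected at 0.1 FPKM or more in every 5d library, and their summed FPKM was 6072, 4474 and 1291 in WT_5d and 1274, 1445 and 1506 in PPARγ/+_5d, with skeletal actin *Acta1* as the most abundant gene. WT_5d replicate 3 thus stood apart from the other WT_5d libraries and lay among the PPARγ/+_5d libraries. On 0d the sums lay between 9.49 and 31.3 FPKM except in WT_0d replicate 2, at 145 FPKM. The summed FPKM of 6 cycling cell markers, of which *Mki67* was the most abundant over all libraries, lay between 165 and 258 on 0d and between 19.8 and 29.2 on 5d. Of 4 myoblast markers, *Des* was the most abundant, and their sum lay from 126.6 to 216 in WT_0d, from 159.5 to 599.9 in WT_5d, from 56.4 to 78.2 in PPARγ/+_0d and from 226 to 269 in PPARγ/+_5d. *Des* made up most of the sum in every library, so the sums mainly follow that gene.

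Adipocyte markers were present in the PPARγ/+ cells. The summed FPKM of 10 of them was 9.04, 9.31 and 6.59 in WT_0d, 10.7, 12.7 and 14.8 in WT_5d, 15.1, 13.3 and 15.4 in PPARγ/+_0d and 35.9, 43.5 and 99.5 in PPARγ/+_5d. *Cebpa*, a transcription factor that these myoblasts also expressed, was the most abundant over all libraries, and it made up most of each WT sum. The defining adipokine *Adipoq* was at 0 to 1 recovered fragments in every WT library, at 83, 38 and 59 fragments in PPARγ/+_0d and at 230, 376 and 1040 fragments in PPARγ/+_5d. *Lep* was at 0 in all 12 libraries, and *Adig* was at 0 in all 3 libraries of PPARγ/+_5d. PPARγ/+_5d replicate 3 thus had the most RNA of adipocyte genes, and the changes of the lipases on 5d are also given without it. Of 4 macrophage markers only *Cd68*, which other cells also carry, was above 0.1 FPKM, with *Ptprc* and *Adgre1* at or near 0, and the sum of 4 osteoblast markers, led by *Bglap*, reached at most 0.388 FPKM.

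**Figure D1:**
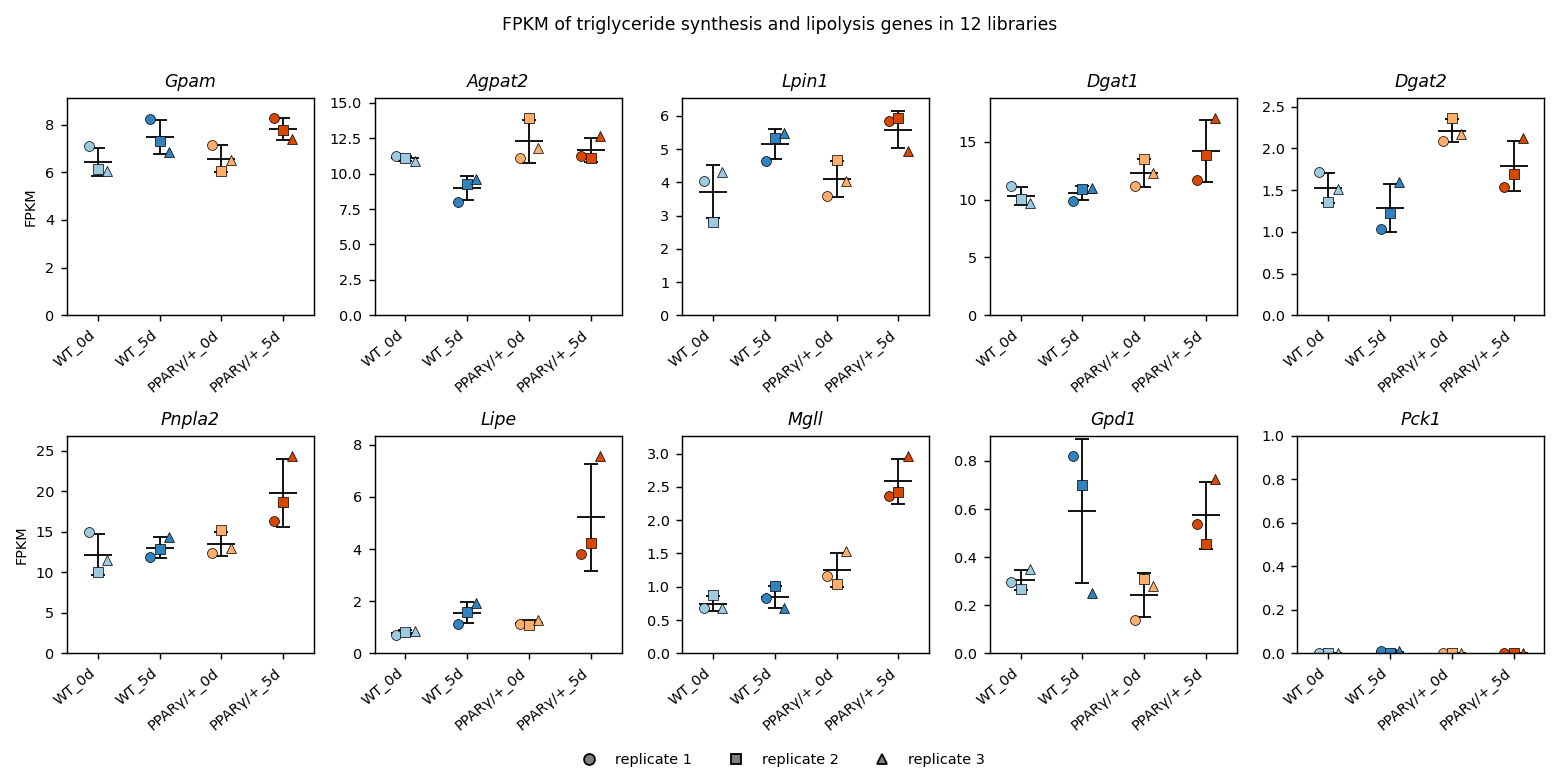
FPKM of the 10 genes in 12 libraries. The y axis of each panel is FPKM from 0, the x axis gives the 4 groups, symbols are the libraries by replicate number, and bars are the mean and SD over 3 libraries. *Lipe*, *Mgll* and *Pnpla2* were highest in PPARγ/+_5d, where replicate 3 stood above the other libraries at 7.58, 2.97 and 24.4 FPKM.

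*Lipe* changed most among the 9 tested genes in both cell types, except that in WT cells without WT_5d replicate 3 *Gpd1* changed more (1.09 against 0.71). From 0d to 5d in PPARγ/+ cells *Lipe* rose by 2.0 on the log2 scale, *Mgll* by 1.0 and *Pnpla2* by 0.53, while in WT cells *Lipe* rose by 0.87 and the other two did not pass the test. On the scale of FPKM, which allows genes to be compared per length, *Pnpla2* was the most abundant of these 3 lipases in every library. The ratio of *Lipe* to *Pnpla2* lay between 0.0456 and 0.135 in the 9 libraries of the other groups and between 0.228 and 0.311 in PPARγ/+_5d.

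The sequences just upstream of the 3 lipases are shown because these genes rose together in PPARγ/+ cells and a factor that binds DNA had been introduced. They are the 250 bases before an annotated transcript start, taken from a table of RefSeq starts on GRCm38.p6 in which 7 of the 10 genes matched. Those of *Dgat1*, *Dgat2* and *Gpd1* were not analysed here. Capitals mark the letters CANNTG, the E-box read by myogenic factors such as MyoD, and would also mark AGGTCA, the half-site of nuclear receptors such as PPARγ, with both strands searched. The *Pnpla2* window lies on the plus strand at chr7:141454938-141455187, that of *Lipe* on the minus strand at chr7:25390113-25390362 and that of *Mgll* on the plus strand at chr6:88724162-88724411. *Lipe* and *Mgll* have another listed start each, which is not printed.
Pnpla2: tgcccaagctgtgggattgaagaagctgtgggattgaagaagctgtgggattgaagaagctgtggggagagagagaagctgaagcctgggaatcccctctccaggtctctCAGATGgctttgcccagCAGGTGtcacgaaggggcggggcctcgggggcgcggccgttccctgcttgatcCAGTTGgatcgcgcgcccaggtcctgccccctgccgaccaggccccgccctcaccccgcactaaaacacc
Lipe: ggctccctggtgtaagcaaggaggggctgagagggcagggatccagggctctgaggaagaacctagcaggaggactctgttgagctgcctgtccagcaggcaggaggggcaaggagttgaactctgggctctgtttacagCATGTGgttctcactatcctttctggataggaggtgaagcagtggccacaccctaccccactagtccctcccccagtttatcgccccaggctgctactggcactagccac
Mgll: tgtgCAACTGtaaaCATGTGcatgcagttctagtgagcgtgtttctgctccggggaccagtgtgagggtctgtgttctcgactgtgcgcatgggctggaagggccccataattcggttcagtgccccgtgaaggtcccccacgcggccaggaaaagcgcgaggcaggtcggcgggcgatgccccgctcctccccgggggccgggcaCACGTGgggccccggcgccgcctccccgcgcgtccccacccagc
The *Pnpla2* and *Mgll* windows each held 3 E-boxes and the *Lipe* window held 1, while the windows not printed held 0 for *Mgll* and 2 for *Lipe*, and 66.2% of all 32851 windows of this length held at least 1. None of these windows of the lipases held AGGTCA, which 14.0% of all windows held, and the direct repeat of AGGTCA spaced by 1 base (DR1), within which the AGGTCA also counts, was found in 0.0335% of all windows and in none of those of the 7 genes. Outside the lipases, the window of *Lpin1* and 1 of the 2 windows of *Gpam* held AGGTCA. These are matches of letters within 250 bases and no measurement of binding.

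*Lipe* (ENSMUSG00000003123, chromosome 7 of GRCm38 from 25379527 to 25398710) encodes hormone-sensitive lipase, which acts mainly on diacylglycerol. Its FPKM was 0.683, 0.815 and 0.873 in WT_0d, 1.14, 1.59 and 1.94 in WT_5d, 1.13, 1.101 and 1.29 in PPARγ/+_0d and 3.83, 4.24 and 7.58 in PPARγ/+_5d. The PPARγ/+_5d libraries lay above all others, WT_5d and PPARγ/+_0d overlapped, and WT_0d lay below every other group. The values rest on 78 to 121 recovered fragments per library in WT_0d and 467 to 829 in PPARγ/+_5d. From 0d to 5d *Lipe* rose by 2.0 on the log2 scale in PPARγ/+ cells (SE 0.25, 95% confidence interval 1.40 to 2.60, adjusted p = 8.84e-04), and by 0.87 in WT cells (SE 0.23, 0.32 to 1.42, adjusted p = 0.0263). Without PPARγ/+_5d replicate 3 the change in PPARγ/+ cells was 1.70 (adjusted p = 0.00105), so it did not rest on that library. The WT change passed the test with WT_5d replicate 1 left out (adjusted p = 0.0157) and missed it with any other WT library left out, at 0.0835 without WT_0d replicate 1, 0.0685 without WT_0d replicate 2, 0.0624 without WT_0d replicate 3, 0.0892 without WT_5d replicate 2 and 0.0574 without WT_5d replicate 3. The exons of *Lipe* share 918 bases with those of 4732471J01Rik on the opposite strand, whose FPKM reached at most 0.199, and the library kit does not mark strand, so fragments there cannot be told apart.

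*Mgll* (ENSMUSG00000033174, chromosome 6 from 88724412 to 88828360) encodes monoacylglycerol lipase, which releases the last fatty acid. Its FPKM was 0.680, 0.882 and 0.681 in WT_0d, 0.835, 1.01 and 0.683 in WT_5d, 1.16, 1.04 and 1.53 in PPARγ/+_0d and 2.36, 2.43 and 2.97 in PPARγ/+_5d. The PPARγ/+ libraries lay above all WT libraries on both days, and PPARγ/+_5d lay above PPARγ/+_0d, while WT_0d and WT_5d overlapped. *Mgll* rose from 0d to 5d by 1.0 in PPARγ/+ cells (SE 0.17, 95% confidence interval 0.60 to 1.41, adjusted p = 0.00309), and the change was 0.90 without PPARγ/+_5d replicate 3 (adjusted p = 0.0159). In WT cells the difference between the days was 0.15 (SE 0.21, interval −0.36 to 0.66, adjusted p = 0.623). Recovered fragments ranged from 67 to 113 in WT_0d and from 248 to 280 in PPARγ/+_5d. The exons share 167 bases with those of Gm26588 on the opposite strand, which reached at most 0.0177 FPKM.

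*Pnpla2* (ENSMUSG00000025509, chromosome 7 from 141455198 to 141460743) encodes the lipase that removes the first fatty acid. Its FPKM was 14.99, 9.99 and 11.6 in WT_0d, 11.9, 12.8 and 14.4 in WT_5d, 12.3, 15.2 and 12.95 in PPARγ/+_0d and 16.3, 18.6 and 24.4 in PPARγ/+_5d. The PPARγ/+_5d libraries lay above all others and the other 3 groups overlapped. *Pnpla2* rose by 0.53 from 0d to 5d in PPARγ/+ cells (SE 0.16, 95% confidence interval 0.16 to 0.90, adjusted p = 0.0283), less than 2-fold. The call was lost without PPARγ/+_5d replicate 3, where the change was 0.37 (adjusted p = 0.0524), and without PPARγ/+_0d replicate 1 (adjusted p = 0.0935), PPARγ/+_0d replicate 3 (0.0914) or PPARγ/+_5d replicate 2 (0.0678). In WT cells the difference was 0.11 (SE 0.16, adjusted p = 0.623).

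Summed over the 3 lipases, the FPKM was 16.4, 11.7 and 13.1 in WT_0d, 13.9, 15.4 and 17.0 in WT_5d, 14.6, 17.4 and 15.8 in PPARγ/+_0d and 22.5, 25.3 and 34.9 in PPARγ/+_5d. The ratio of this sum to the summed FPKM of the 5 synthesis genes lay between 0.372 and 0.493 in the first 3 groups and was 0.582, 0.627 and 0.791 in PPARγ/+_5d. Lipolysis genes therefore made up a larger part of the RNA of these enzymes in PPARγ/+_5d than in any library of another group. In a mixed culture, more cells of a type and more RNA per cell cannot be told apart. Of the 10 adipocyte markers 7 were tested, and 6 rose from 0d to 5d in PPARγ/+ cells, all but *Cidec*, beside 18.8% of all genes. In WT cells 1 rose, the fatty acid transporter *Cd36*, beside 14.1% of all genes. When the day effects of the cell types were compared, 0 of the 7 passed, beside 0.76% of all genes. The sum of the 10 markers was highest in the library where the lipases were highest, and their part in these values was not tested.

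**Figure D2:**
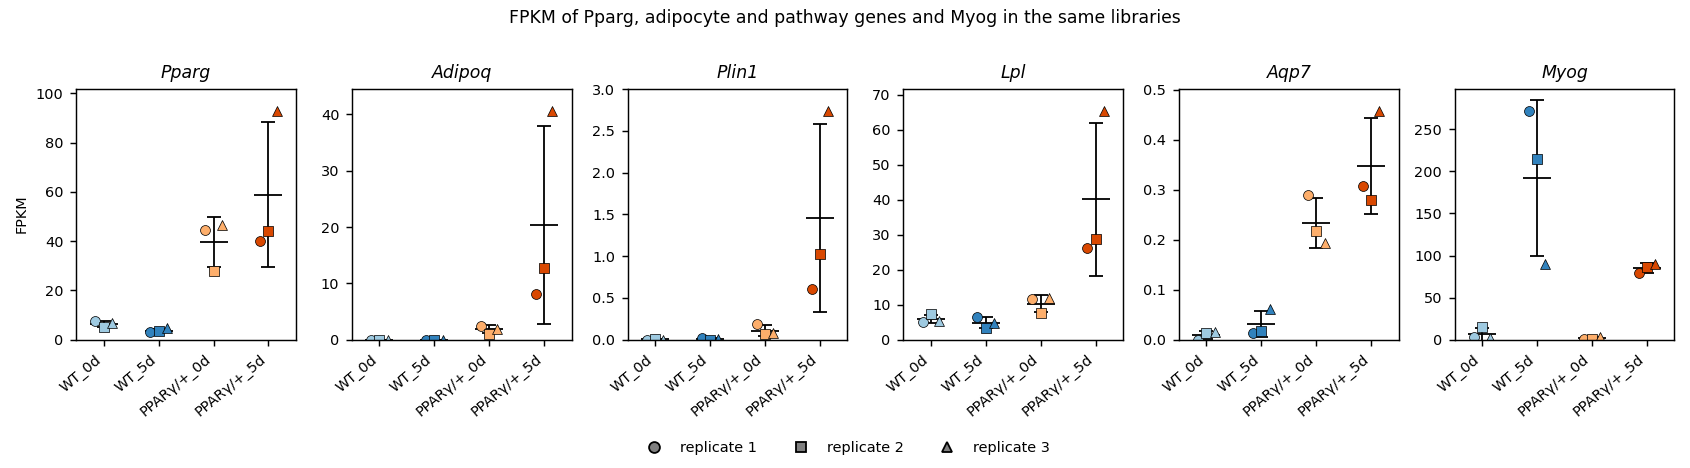
FPKM of *Pparg*, the adipocyte genes *Adipoq* and *Plin1*, the pathway genes *Lpl* and *Aqp7*, and the myotube gene *Myog* in the same 12 libraries. The y axes are FPKM from 0, symbols are libraries by replicate number, and bars are the mean and SD over 3 libraries. PPARγ/+_5d replicate 3 had the highest *Pparg*, at 92.7 FPKM, and the highest *Adipoq*, at 40.5 FPKM, and WT_5d replicate 3 had the lowest *Myog* of its group.

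The synthesis genes moved less. The summed FPKM of the 5 was 35.3, 31.5 and 32.4 in WT_0d, 31.8, 34.1 and 34.5 in WT_5d, 35.04, 40.6 and 36.8 in PPARγ/+_0d and 38.7, 40.4 and 44.2 in PPARγ/+_5d. *Dgat1* and *Agpat2* were the most abundant and *Dgat2* the least.

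*Gpam* (ENSMUSG00000024978, chromosome 19 from 55067268 to 55127238), the mitochondrial acyltransferase of the first step, had an FPKM of 7.12, 6.12 and 6.04 in WT_0d, 8.25, 7.33 and 6.84 in WT_5d, 7.14, 6.04 and 6.54 in PPARγ/+_0d and 8.29, 7.79 and 7.39 in PPARγ/+_5d. The 5d libraries of PPARγ/+ cells lay above their 0d libraries, and the WT days overlapped. *Gpam* rose by 0.25 in PPARγ/+ cells (SE 0.08, adjusted p = 0.0465), and the WT difference was 0.21 (SE 0.11, adjusted p = 0.179). The call was lost with each library left out except PPARγ/+_0d replicate 1, with an adjusted p of 0.114 without PPARγ/+_0d replicate 2, 0.108 without PPARγ/+_0d replicate 3, 0.138 without PPARγ/+_5d replicate 1, 0.116 without PPARγ/+_5d replicate 2 and 0.0606 without PPARγ/+_5d replicate 3.

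*Agpat2* (ENSMUSG00000026922, chromosome 2 from 26593057 to 26604417) encodes the acyltransferase whose loss causes lipodystrophy. Its FPKM was 11.3, 11.1 and 10.9 in WT_0d, 8.02, 9.29 and 9.61 in WT_5d, 11.1, 14.0 and 11.8 in PPARγ/+_0d and 11.3, 11.1 and 12.6 in PPARγ/+_5d. WT_5d lay below every library of the other groups. *Agpat2* fell by 0.31 on the log2 scale in WT cells (SE 0.09, adjusted p = 0.0400), and with the libraries rescaled by median ratios the difference was −0.18 (adjusted p = 0.116). The call held with WT_5d replicate 3 left out (adjusted p = 0.0288) and was lost without WT_0d replicate 1 (0.101), WT_0d replicate 2 (0.102), WT_0d replicate 3 (0.0952), WT_5d replicate 1 (0.0670) or WT_5d replicate 2 (0.0837). In PPARγ/+ cells the difference between the days was −0.07 (SE 0.10, adjusted p = 0.602), and its sign turned under both other scalings. The exons share 64 bases with those of *Egfl7* on the opposite strand, at most 0.263 FPKM.

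*Lpin1* (ENSMUSG00000020593, chromosome 12 from 16535669 to 16610966) encodes lipin-1, the phosphatidate phosphatase of muscle and fat, which also acts as a transcriptional coactivator. Its FPKM was 4.04, 2.82 and 4.30 in WT_0d, 4.65, 5.33 and 5.48 in WT_5d, 3.59, 4.68 and 4.05 in PPARγ/+_0d and 5.85, 5.95 and 4.94 in PPARγ/+_5d. In both cell types all 5d libraries lay above all 0d libraries, and the cell types overlapped on both days. *Lpin1* rose by 0.44 in PPARγ/+ cells (SE 0.12, adjusted p = 0.0249). In WT cells the difference was as large, 0.48 (SE 0.18), but missed the threshold (adjusted p = 0.0778), and passed it after median-ratio scaling at 0.60 (adjusted p = 0.0279) or quantile normalization at 0.58 (adjusted p = 0.0370). The call in PPARγ/+ cells was lost without PPARγ/+_0d replicate 1 (adjusted p = 0.0624), PPARγ/+_0d replicate 3 (0.0731), PPARγ/+_5d replicate 1 (0.0870) or PPARγ/+_5d replicate 2 (0.0914).

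*Dgat1* (ENSMUSG00000022555, chromosome 15 from 76502015 to 76511953) and *Dgat2* (ENSMUSG00000030747, chromosome 7 from 99153658 to 99182719) encode unrelated proteins for the last step. The FPKM of *Dgat1* was 11.2, 10.1 and 9.72 in WT_0d, 9.89, 10.9 and 10.998 in WT_5d, 11.1, 13.5 and 12.3 in PPARγ/+_0d and 11.7, 13.8 and 17.1 in PPARγ/+_5d. The days overlapped in both cell types, and on 5d the PPARγ/+ libraries lay above the WT libraries. The FPKM of *Dgat2* was 1.72, 1.36 and 1.52 in WT_0d, 1.03, 1.22 and 1.60 in WT_5d, 2.09, 2.37 and 2.18 in PPARγ/+_0d and 1.54, 1.69 and 2.13 in PPARγ/+_5d. On 0d the PPARγ/+ libraries lay above the WT libraries, and on 5d they overlapped. Neither gene passed the test between the days, with differences of 0.04 (SE 0.09) and −0.25 (SE 0.20) in WT cells and 0.19 (SE 0.14) and −0.30 (SE 0.14) in PPARγ/+ cells, and *Dgat2* fell by 0.43 in PPARγ/+ cells when PPARγ/+_5d replicate 3 was left out (adjusted p = 0.0409). With each library left out in turn, the *Dgat1* difference in PPARγ/+ cells ranged from 0.054 to 0.32 and never passed. *Dgat1* was 5.32 to 9.61 times as abundant as *Dgat2* per length.

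*Gpd1* (ENSMUSG00000023019, chromosome 15 from 99717515 to 99725005), the cytosolic glycerol-3-phosphate dehydrogenase, was low. Its FPKM was 0.296, 0.268 and 0.350 in WT_0d, 0.822, 0.700 and 0.252 in WT_5d, 0.138, 0.311 and 0.278 in PPARγ/+_0d and 0.537, 0.455 and 0.727 in PPARγ/+_5d, from 10 to 62 fragments per library. WT_5d replicate 3, the library with the fewest myotube transcripts of its group, lay below the other WT_5d libraries and among the 0d libraries. *Gpd1* rose by 0.99 in PPARγ/+ cells (SE 0.28, adjusted p = 0.0250), which was lost without PPARγ/+_5d replicate 1 (adjusted p = 0.0651) or replicate 3 (0.0818) and after quantile normalization (0.0516). In WT cells the difference was 0.66 (SE 0.39, adjusted p = 0.233), and without WT_5d replicate 3 it was 1.09 and passed (adjusted p = 0.0141). Over the 6 WT libraries left out in turn it ranged from 0.40 to 1.09, and only that fit passed. The exons share 384 bases with those of Gm16537 on the opposite strand. Its FPKM was 0.175, 0.0546 and 0 in PPARγ/+_0d, and 0.206, 0.265 and 0.153 in PPARγ/+_5d. The highest of these is close to the level of *Gpd1* itself on 0d. In WT libraries Gm16537 reached at most 0.123 FPKM, and its part in the *Gpd1* values was not tested. *Pck1* (ENSMUSG00000027513, chromosome 2 from 173153048 to 173159273) had 1 recovered fragment each in WT_5d replicates 1 and 3 and 0 in the other 10 libraries, so that no change could be detected at this depth. With 0 fragments a library still allows up to 3, a limit that covers counting error only.

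From 0d to 5d in WT cells, 2 of the 9 tested genes passed the adjusted p of 0.05, *Lipe* upward and *Agpat2* downward. Of all 18023 genes tested 37.1% passed, 14.1% upward and 23% downward, so 2 of 9 was no more than the background. The libraries of the days did not overlap for *Lpin1* and *Lipe*, which were higher on 5d, and for *Agpat2*, which was lower, beside 20.2% of all genes higher and 30.9% lower. In PPARγ/+ cells 6 of the 9 passed, all upward, namely *Gpam*, *Lpin1*, *Gpd1*, *Pnpla2*, *Lipe* and *Mgll*, and the libraries of the same 6 genes did not overlap between the days. Of all genes 47.5% passed, 18.8% upward and 28.8% downward, and 23.8% had libraries that lay higher on 5d without overlap. With a library left out, *Lipe* and *Mgll* passed in all 6 fits, *Gpd1* in 4, *Lpin1* and *Pnpla2* in 2 each and *Gpam* in 1. *Dgat2* passed downward in 1, and these fits passed 7049 to 8296 of all genes. After median-ratio scaling 18.1% of all genes passed upward and 17.9% downward in WT cells, and 23.4% and 21.4% in PPARγ/+ cells. That scaling moved the median log2 change of all genes from −0.08 to 0.02 in WT cells and from −0.10 to 0.02 in PPARγ/+ cells, and under it *Lipe*, *Mgll* and *Pnpla2* changed in PPARγ/+ cells by 2.12, 1.13 and 0.66. With the FPKM as deposited, the median log2 change of the 9 genes was 0.15 for WT and 0.44 for PPARγ/+ cells.

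**Figure D3:**
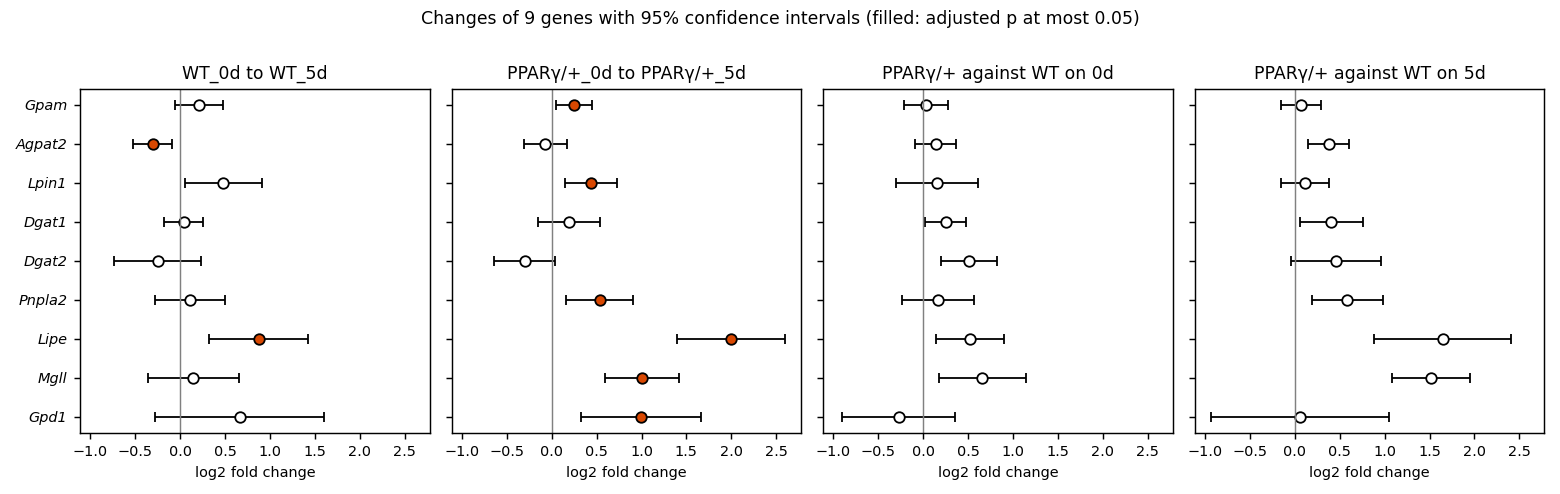
Log2 fold changes of 9 genes on log2(FPKM + 0.1), with 95% confidence intervals, in 4 comparisons of 3 libraries against 3. The x axis is the log2 fold change with a line at 0, and filled points passed an adjusted p of 0.05. *Lipe* had the largest change in PPARγ/+ cells from 0d to 5d, at 2.0, and no gene passed in either comparison of the cell types.

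Between the cell types, which share libraries with the comparisons of days, the lipases had higher means in PPARγ/+ cells, but none of the 9 genes passed on either day. On 0d the *Pnpla2* libraries of the cell types overlapped. With each library left out in turn, its difference there ranged from 0.030 to 0.32. On 0d none of the 9 passed with limma, beside 3.75% of all genes (1.28% higher and 2.46% lower), and 4 had an unadjusted p under 0.05, all higher in PPARγ/+ cells, where 21.7% of all genes did. These were *Mgll* with a log2 difference of 0.66 (SE 0.20, adjusted p = 0.134), *Lipe* with 0.52 (SE 0.16, adjusted p = 0.132), *Dgat2* with 0.51 (SE 0.13, adjusted p = 0.0923) and *Dgat1* with 0.25 (SE 0.09, adjusted p = 0.198). Libraries did not overlap for *Dgat2*, *Lipe* and *Mgll*, all higher in PPARγ/+ cells, beside 13.7% of all genes higher and 13.1% lower.

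On 5d none of the 9 genes passed, beside 0.189% of all genes, which is 34 genes (0.105% higher and 0.0832% lower), and 5 had an unadjusted p under 0.05, all higher in PPARγ/+ cells, where 12.7% of all genes did. *Mgll* differed by 1.52 (SE 0.18, 95% confidence interval 1.08 to 1.95, adjusted p = 0.0586) and *Lipe* by 1.64 (SE 0.31, 0.88 to 2.41, adjusted p = 0.130). *Pnpla2* differed by 0.58 (SE 0.16, adjusted p = 0.246), *Dgat1* by 0.41 (SE 0.14, adjusted p = 0.335) and *Agpat2* by 0.38 (SE 0.09, adjusted p = 0.218). For these 5 genes all PPARγ/+_5d libraries lay above all WT_5d libraries, beside 10.2% of all genes higher and 8.31% lower. The result turned on WT_5d replicate 3: without it 1933 genes passed, among them *Mgll* (1.39, adjusted p = 0.0151) and *Lipe* (1.81, adjusted p = 0.0411). Without PPARγ/+_5d replicate 3 instead, 6 genes passed, and the differences of *Mgll*, *Lipe* and *Pnpla2* were 1.42, 1.35 and 0.42 (adjusted p = 0.247, 0.303 and 0.468), with 0.27 for *Dgat1* and 0.32 for *Agpat2*. In 1 fit over all 12 libraries *Mgll* and *Lipe* also passed, with adjusted p-values of 0.00307 and 0.00867, and without both replicates numbered 3 on 5d, a choice made after the data were seen, they differed by 1.29 and 1.51 (adjusted p = 0.0568 and 0.0662).

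An interaction term over all 12 libraries compared the day effect of PPARγ/+ cells with that of WT cells. None of the 9 genes passed with limma, beside 0.76% of all genes, and 2 had an unadjusted p under 0.05, where 12.01% of all genes did. The rise of *Lipe* was larger in PPARγ/+ cells by 1.13 (SE 0.35, 95% confidence interval 0.35 to 1.90, adjusted p = 0.214) and the change of *Mgll* by 0.86 (SE 0.27, interval 0.27 to 1.44, adjusted p = 0.211). For *Pnpla2* the term was 0.42 (SE 0.24, interval −0.10 to 0.95). The remaining 6 terms lay between −0.05 and 0.33, with intervals that include 0, among them *Lpin1* at −0.04 (interval −0.54 to 0.45) and *Gpam* at 0.04 (−0.27 to 0.34). Without PPARγ/+_5d replicate 3 the terms of *Lipe*, *Mgll* and *Pnpla2* were 0.83, 0.76 and 0.26 (adjusted p = 0.361, 0.429 and 0.773). *Lipe* passed when libraries were weighted by their quality, at 1.02 (adjusted p = 0.0423).

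The other genes of the pathway were taken from 5 lists with 37 genes, of which 31 were tested. In WT cells from 0d to 5d, 4 rose and 8 fell, beside 14.1% and 23% of all genes, and in PPARγ/+ cells 10 rose and 11 fell, beside 18.8% and 28.8%, with median log2 changes of −0.05 and −0.18 beside −0.08 and −0.10 for all genes. After median-ratio scaling 5 rose and 5 fell in WT cells, and 10 rose and 7 fell in PPARγ/+ cells. The calls lost by that scaling were small falls, of *Agpat1*, *Lpin2* and *Pck2* in WT cells and of *Gpd1l*, *Abhd5*, *Hilpda* and *Prkaca* in PPARγ/+ cells.

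Among 11 regulators of lipolysis, 8 were tested, of which 1 rose and 2 fell in WT cells and 2 rose and 5 fell in PPARγ/+ cells. *G0s2*, the protein inhibitor of the lipase of *Pnpla2*, rose in both cell types. Its FPKM was 4.91, 5.83 and 8.78 in WT_0d, 54.4, 41.5 and 26.6 in WT_5d, 6.40, 4.32 and 4.31 in PPARγ/+_0d and 30.7, 31.6 and 33.4 in PPARγ/+_5d. All 5d libraries lay above all 0d libraries, and the cell types overlapped on both days. The log2 change of *G0s2* reached 2.61 in WT cells (SE 0.31, adjusted p = 0.00156) and 2.67 in PPARγ/+ cells (SE 0.15, adjusted p = 4.80e-05). *Plin1*, the droplet coat protein that holds back lipolysis until it is phosphorylated, also stands in the list of adipocyte markers. It had at most 3 fragments in any WT library, 21, 8 and 8 fragments in PPARγ/+_0d and 59, 102 and 236 in PPARγ/+_5d, and rose by 2.69 in PPARγ/+ cells (SE 0.52, adjusted p = 0.00528), or by 2.13 without PPARγ/+_5d replicate 3 (adjusted p = 0.00770). *Abhd5*, the coactivator of *Pnpla2*, and *Hilpda*, another inhibitor of it, differed little: they fell by 0.32 and 0.30 in PPARγ/+ cells (adjusted p = 0.0121 and 0.0123), calls lost after median-ratio scaling (0.0624 and 0.0597) and quantile normalization (0.0860 and 0.0784), and the WT differences of −0.29 and −0.25 did not pass.

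The other calls of the list were lower on 5d, among them genes of the cyclic AMP signal that switches lipolysis on or off. *Pde3b*, the phosphodiesterase through which insulin restrains lipolysis, fell by 1.01 in WT cells and 0.68 in PPARγ/+ cells (adjusted p = 0.00502 and 0.00501). *Prkar2b*, a regulatory subunit of protein kinase A, fell by 1.1 in WT cells (adjusted p = 0.00148) and by 0.48 in PPARγ/+ cells (adjusted p = 0.00650). *Prkaca*, the catalytic subunit, was the most abundant gene of the list, at 92.9 to 134.1 FPKM. It fell by 0.26 in PPARγ/+ cells (adjusted p = 0.00928), a call lost after median-ratio scaling (0.124) and quantile normalization (0.0549), and was higher in PPARγ/+ cells on 0d by 0.39 (adjusted p = 0.0249).

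Among 6 other hydrolases 5 were tested, of which 2 rose in WT cells and 3 in PPARγ/+ cells, and none fell. *Lpl*, the lipoprotein lipase that releases fatty acids outside the cell, was at 5.11, 7.22 and 5.31 FPKM in WT_0d, 6.39, 3.38 and 4.91 in WT_5d, 11.5, 7.51 and 11.8 in PPARγ/+_0d and 26.1, 28.8 and 65.2 in PPARγ/+_5d. The PPARγ/+ libraries lay above the WT libraries on both days, and *Lpl* rose by 1.85 in PPARγ/+ cells (SE 0.36, adjusted p = 0.00582), or by 1.44 without PPARγ/+_5d replicate 3 (adjusted p = 0.00572). *Ces1d*, a carboxylesterase with triglyceride hydrolase activity, had 2, 1 and 2 fragments in PPARγ/+_0d, at the floor of 3, and 97, 121 and 127 in PPARγ/+_5d. In WT cells it had 3, 6 and 0 fragments on 0d and 12, 39 and 71 on 5d, counts chosen for mention after their values were seen, and its WT call held only without WT_5d replicate 1 (adjusted p of 0.00631 to 0.0964 over the 6 libraries left out). *Lipa*, the lysosomal acid lipase, rose by 0.49 in WT cells (SE 0.15, adjusted p = 0.0427), a call that was lost without WT_0d replicate 1 (adjusted p = 0.111), WT_0d replicate 2 (0.0757), WT_0d replicate 3 (0.137) or WT_5d replicate 2 (0.101). In PPARγ/+ cells *Lipa* rose by 0.23 (adjusted p = 0.0111).

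Among 6 genes of glycerol 3-phosphate supply, 1 rose and 3 fell in each cell type. *Gpd2*, the mitochondrial glycerol-3-phosphate dehydrogenase, which uses up glycerol 3-phosphate, was at 13.2, 13.6 and 13.03 FPKM in WT_0d, 4.09, 3.58 and 4.62 in WT_5d, 7.23, 7.27 and 8.04 in PPARγ/+_0d and 3.99, 4.01 and 3.99 in PPARγ/+_5d. On 0d it was lower in PPARγ/+ cells without overlap, while the cell types overlapped on 5d. *Gpd2* fell by 1.68 in WT cells (SE 0.11, adjusted p = 2.49e-04) and by 0.89 in PPARγ/+ cells (SE 0.07, adjusted p = 1.33e-04), and on 0d its log2 difference between PPARγ/+ and WT cells was −0.81 (SE 0.06, adjusted p = 0.00769). *Pcx*, the pyruvate carboxylase, rose by 1.54 in WT cells (SE 0.12, adjusted p = 3.87e-04) and by 1.08 in PPARγ/+ cells (SE 0.07, adjusted p = 6.86e-05). *Gk*, the glycerol kinase, fell by 0.80 in WT cells (adjusted p = 0.0118). The remaining falls, named after their values were seen, were those of *Pck2*, the mitochondrial phosphoenolpyruvate carboxykinase, by 0.53 in WT cells and 0.50 in PPARγ/+ cells, and of *Gpd1l* by 0.35 in PPARγ/+ cells. With a library left out, the WT call of *Pck2* held only without WT_0d replicate 2 (adjusted p of 0.0191 to 0.0817), and that of *Gpd1l* only without PPARγ/+_0d replicate 3 or PPARγ/+_5d replicate 2 (0.0150 to 0.1003).

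On 0d, 5 of the 31 pathway genes differed between the cell types, 4 higher and 1, *Gpd2*, lower, beside 1.28% and 2.46% of all genes. *Pcx* was higher by 0.47 (adjusted p = 0.0302), *Lipa* by 0.47 (adjusted p = 0.0292) and *Prkaca* by 0.39, and each of these calls was lost after median-ratio scaling (0.0653, 0.0574 and 0.0568) and whichever of the 6 libraries was left out, with adjusted p-values of 0.0676 to 0.109, 0.0582 to 0.118 and 0.0601 to 0.103. The 4th was *Aqp7*, the glycerol channel of adipocytes, which is below 1 FPKM and was named after its values were seen. It had 0, 1 and 1 fragments in WT_0d, 1, 1 and 4 in WT_5d, 20, 16 and 12 in PPARγ/+_0d and 18, 17 and 24 in PPARγ/+_5d, so the cell types did not overlap on either day, and its call on 0d held only without PPARγ/+_0d replicate 1 (adjusted p of 0.0437 to 0.0673 over the 6 libraries left out). On 5d none of the 31 passed.

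Of the isoenzymes of synthesis, 9 of 11 were tested. None rose and 3 fell in WT cells, and 2 rose and 3 fell in PPARγ/+ cells. *Gpat4*, a further acyltransferase of the opening step, fell by 0.51 in PPARγ/+ cells (SE 0.05, adjusted p = 3.23e-04) and by 0.38 in WT cells (adjusted p = 0.00724). Named after their values were seen, *Agpat1* fell by 0.33 in WT cells and 0.39 in PPARγ/+ cells, *Lpin2* fell by 0.32 in WT cells, and *Lpin3* and *Agpat4* rose in PPARγ/+ cells by 0.58 and 0.17. With a library left out, the WT call of *Agpat1* was lost in all 6 fits (adjusted p of 0.0568 to 0.0948). That of *Lpin2* held only without WT_5d replicate 3 (0.0303 to 0.0874). The PPARγ/+ call of *Agpat4* held only without PPARγ/+_0d replicate 1 or PPARγ/+_5d replicate 3 (0.0479 to 0.114). With a WT library left out, the WT change ranged from 0.32 to 0.58 for *Lpin3* and from 0.28 to 0.51 for *Agpat4*. *Agpat4* passed in 1 of these fits and *Lpin3* in 0. *Lpin3* also passed upward in WT cells after median-ratio scaling (0.61, adjusted p = 0.0332) and quantile normalization (0.62, adjusted p = 0.0270). *Mogat2*, a monoacylglycerol acyltransferase, had an FPKM of 1.52, 0.886 and 1.53 in WT_0d, 1.18, 0.960 and 0.526 in WT_5d, 1.23, 1.27 and 0.898 in PPARγ/+_0d and 0.526, 0.507 and 0.469 in PPARγ/+_5d. PPARγ/+_5d lay below all 0d libraries, and *Mogat2* fell by 1.03 in PPARγ/+ cells (SE 0.18, adjusted p = 0.00329). The 3 genes of droplet assembly were all tested, and 2, named after their values were seen, passed upward in PPARγ/+ cells. *Fitm2* rose by 0.43 (adjusted p = 0.0132), a call lost without PPARγ/+_5d replicate 2 (adjusted p = 0.0507). *Fitm1* passed with 0 fragments in each library of PPARγ/+_0d and 2, 1 and 1 in PPARγ/+_5d, all at or under the floor of 3, so no fold is given. The *Fitm1* call held in 2 of the 6 fits with a library left out (adjusted p of 0.0411 to 0.0637). It was lost after quantile normalization (0.0612). None of the 3 genes passed in WT cells with all libraries kept. With a WT library left out, the WT change of *Fitm2* ranged from 0.42 to 1.04. It passed in 1 of these 6 fits (adjusted p of 0.00827 to 0.308).

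**Figure D4:**
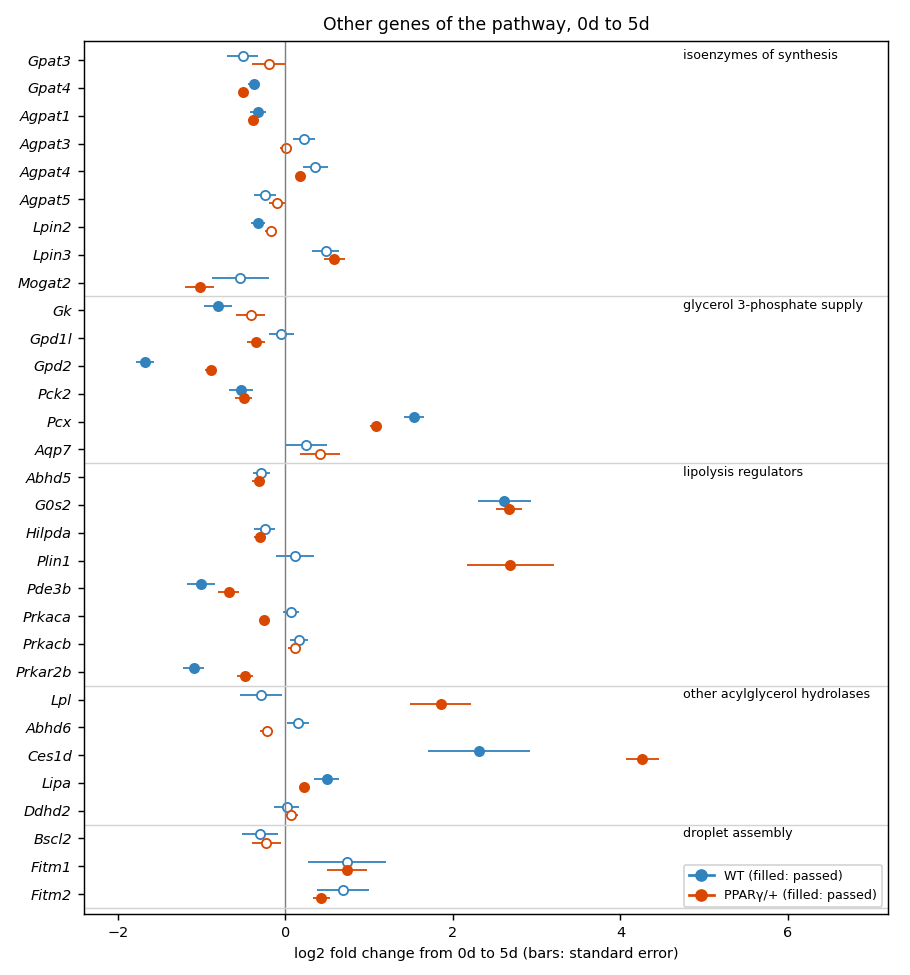
Log2 fold changes from 0d to 5d of the 31 tested pathway genes in WT and PPARγ/+ cells, grouped by list. The x axis is the log2 fold change, bars are standard errors and filled points passed an adjusted p of 0.05, with those of *Fitm1* and *Ces1d* in PPARγ/+ cells resting on 0d libraries at or under 3 fragments. *G0s2* lay at 2.61 and 2.67, while *Plin1* and *Lpl* rose in PPARγ/+ cells and *Gpd2* fell further in WT cells.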

How the data were processed

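RNA libraries were made with a TruSeq kit that does not mark strand. Per the study's methods, Trim Galore was used on the reads, STAR for alignment to GRCm38 and HTSeq for counts per Ensembl gene, from which the authors derived the deposited FPKM, while the submitters' processing notes name the build mm9. A deposited log2 table of the same values differed by at most 5.3e-14 and was not used further. Fragments were recovered as FPKM times annotated exonic length times mapped pairs of the study's mapping table, where this gave whole numbers within 0.02. The 4 members *Gpam*, *Lpin1*, *Dgat1* and *Dgat2* gave none.

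In R 4.3.3, limma 3.58.1 with trended empirical Bayes variances was fitted to log2(FPKM + 0.1) of the 18023 genes with at least 0.1 FPKM in at least 3 libraries, on the 6 libraries of each comparison and on all 12 for the interaction. Fold changes are on that scale, which understates those of low genes. P-values are two-sided with Benjamini-Hochberg adjustment over all genes tested, and a gene passed at 0.05 or less. The study's own cutoffs, an unadjusted p of 0.05 and a fold of 2, were an alternative, beside other added values, filters, scalings, fits and left-out libraries. The method was tested on simulated data. Python 3.11.15 (pandas 2.3.3, numpy 2.4.6) made the tables and matplotlib 3.10.9 the plots. Every pair of libraries differed at 21594 or more genes.

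Members, lists and tests were chosen with earlier results of these data known. Named were all members, per comparison the 4 pathway genes that rose and the 4 that fell most among those past the threshold with a group mean of at least 1 FPKM, *Abhd5*, *G0s2*, *Hilpda* and *Pparg*, and the most abundant gene of each marker list. Further genes of the marker lists, and *Fitm1*, *Fitm2* and others so marked, were named after their values were seen. A gene of the regulator list is not reported here.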

Additional observations from a re-analysis of the deposited data

Results flagged for a closer look

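The change from 0d to 5d of *Gpd2*, the mitochondrial glycerol-3-phosphate dehydrogenase, differed between the cell types by a test of the difference itself, as the only one of the 31 tested pathway genes. The interaction term was 0.79 on the log2 scale (SE 0.13, limma adjusted p = 0.0208 over all genes tested), a smaller fall in PPARγ/+ cells. It missed the threshold without WT_0d replicate 2 (adjusted p = 0.0628) or 3 (0.0576), PPARγ/+_0d replicate 1 (0.0511) or 2 (0.0701), or PPARγ/+_5d replicate 1 (0.0576), 2 (0.0679) or 3 (0.0702).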

How the results depend on the processing

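Precision was limited by 3 libraries a group, and for *Gpd1* and *Pck1* by their few fragments. Of 823 values of the 9 tested enzymes under an alternative, 724 kept their direction and side of the threshold, 49 no longer passed, 20 newly passed and 30 changed sign, none of the last from a value that had passed. In PPARγ/+ cells from 0d to 5d *Lipe* and *Mgll* passed with each of the 6 libraries left out. Where a result changed, the cause was not tested.

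With the study's cutoffs (unadjusted p and 2-fold), 2970 genes and 0 of the enzymes passed between days in WT cells, 2735 and 2 in PPARγ/+ cells, 606 and 2 between cell types on 5d, and 747 and 1 for the interaction. With an adjusted p and 2-fold, 2699 genes and 0 enzymes passed in WT cells, 2581 and 2 in PPARγ/+ cells, and 287 genes on 0d. With no filter, of 27138 genes 5776 passed in WT cells with 0 of the enzymes, 7883 with 2 in PPARγ/+ cells, 309 on 0d and 74 on 5d. With array weights, whose estimation stopped short of convergence in some fits, 10097 genes and 5 enzymes passed in WT cells, 1055 genes on 0d, 1113 genes and 2 enzymes on 5d, and 2070 and 1 for the interaction. On 5d, adding 1 to the FPKM gave 12 genes, and adding 0.01 gave 87 and 1 enzyme. On the same day a filter at 1 FPKM gave 26 of 12290 genes and 1 enzyme. A fit over 12 libraries gave 294 genes and 2 enzymes there. Without both 5d libraries numbered 3, chosen after seeing the data, 376 genes passed on 5d and 249 for the interaction.

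Signs turned for *Agpat2* in PPARγ/+ cells (0.059 after median-ratio scaling, 0.072 after quantile normalization), *Gpam* on 0d (−0.0062 after median-ratio scaling), *Gpd1* on 5d (−0.0017 with 1 added, −0.26 with array weights, −0.53 without both libraries numbered 3), and in the interaction for *Lpin1* (0.087 without both) and *Gpd1* (−0.14 with array weights, −0.26 without both).

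With each library left out in turn, enzymes that passed ranged from 0 to 2 in WT cells, 3 to 5 in PPARγ/+ cells and 0 to 2 on 5d, and genes from 4548 to 6834 in WT cells, 7049 to 8296 in PPARγ/+ cells, 68 to 243 on 0d, 1 to 1933 on 5d and 42 to 527 for the interaction. Log2 values ranged across 0 for *Dgat1* (−0.0038 to 0.10) and *Pnpla2* (−0.020 to 0.27) in WT cells, *Agpat2* in PPARγ/+ cells (−0.14 to 0.025), *Gpam* (−0.029 to 0.11) and *Lpin1* (−0.030 to 0.27) on 0d, *Gpd1* on 5d (−0.37 to 0.32), and *Gpam* (−0.038 to 0.11), *Lpin1* (−0.16 to 0.14), *Dgat2* (−0.19 to 0.11) and *Gpd1* (−0.10 to 0.60) in the interaction.

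Same-numbered libraries deviated with correlations of −0.07 to 0.08, so no pairing by number was seen. These values cannot tell whether such libraries shared a culture or a preparation. With the replicate block 5376 genes and 1 enzyme passed in WT cells, 7823 and 5 in PPARγ/+ cells, 0 genes on 0d, 0 on 5d and 61 for the interaction, with 0 enzymes in the last 3.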
